A study of Mus musculus with 12 samples.

Results

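Protein O-glycosylation was followed through 6 genes that encode the enzymes building the core structures of mucin-type O-glycans: C1galt1 and its chaperone C1galt1c1, the branching enzymes Gcnt1, Gcnt4 and Gcnt2, and the sialyltransferase St3gal1. They are 6 of the 56941 genes in the count tables, and all 6 were among the 20341 genes with enough reads for testing. Gcnt1 was chosen by its measured fold change between SCA1 sedentary and WT sedentary cerebellum, so its values in that comparison are given as a description. The other 5 were added for their place in the pathway.

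Bulk RNA was sequenced from the cerebellum of 12 mice, 3 in each of 4 groups. SCA1 mice were heterozygous Atxn1154Q/2Q knock-ins, which carry an expanded CAG repeat in the mouse's own Atxn1 gene and model spinocerebellar ataxia type 1, a polyglutamine ataxia with Purkinje cell degeneration. WT mice were their littermates. The exercise groups had a running wheel in the cage from 4 to 16 weeks of age, a span of 12 weeks, and the sedentary groups had none. Running mice were housed alone and sedentary mice in groups, so that running and housing cannot be told apart in these libraries. The paper reports no effect of solo housing on motor or cognitive performance, which concerns behaviour and not RNA. Each library is 1 mouse and is named by the mouse number of the labels.

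Mucin-type O-glycosylation starts in the Golgi, where polypeptide GalNAc-transferases attach N-acetylgalactosamine to serine or threonine. C1galt1 adds galactose to this sugar and so makes core 1, the T antigen, and it needs the endoplasmic reticulum chaperone Cosmc, encoded by C1galt1c1, to fold. Core 1 then stands at a fork. Gcnt1 and Gcnt4 can add a branching N-acetylglucosamine that turns core 1 into core 2, on which longer lactosamine chains are built, whereas St3gal1 can cap core 1 with sialic acid, after which it is no longer a substrate for branching. Gcnt2 adds a related branch to lactosamine chains and makes the I antigen.

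The 6 genes lie apart from one another in the GRCm39 genome. Gcnt1 (ENSMUSG00000038843) spans chr19:17303505-17350208 on the minus strand, St3gal1 (ENSMUSG00000013846) chr15:66974724-67048690 on the minus strand, and C1galt1 (ENSMUSG00000042460) chr6:7844634-7875687 on the plus strand. C1galt1c1 (ENSMUSG00000048970) lies on the X chromosome at chrX:37719034-37724025, minus strand. Gcnt2 (ENSMUSG00000021360) at chr13:41013230-41114370 and Gcnt4 (ENSMUSG00000091387) at chr13:97061053-97087422 are both on the plus strand of chromosome 13. The 250 bases before the annotated start of the canonical Gcnt1 transcript, chr19:17334032-17334281 on the minus strand, are shown because Gcnt1 is the member chosen for its difference between genotypes. Read 5′ to 3′ along the gene, they are as follows.
Gcnt1: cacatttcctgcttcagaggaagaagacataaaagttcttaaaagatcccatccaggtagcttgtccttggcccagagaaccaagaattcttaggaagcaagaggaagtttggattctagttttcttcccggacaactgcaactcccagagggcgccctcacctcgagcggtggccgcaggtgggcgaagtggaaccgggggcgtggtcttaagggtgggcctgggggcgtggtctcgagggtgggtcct
This window has a GC content of 55.6% and lies inside the annotated span of Gcnt1. Starts of its other transcripts were not searched. It was searched on both strands for TGAATGAA, a motif of Capicua (the repressor that ataxin-1 binds), and for TAGGTCA, a motif of the Purkinje cell factor RORA. Neither run of letters was found in it, nor in the same window of the other 5 genes, which is why no base is in capitals. Over the 21770 protein-coding genes searched alike, 1.22% held the first and 2.17% the second, so absence from 6 windows says little.

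Between 20556802 and 32127508 read pairs per library were counted on the transcribed strand of genes, and levels are given in CPM, the count of a gene scaled to a common library total and corrected for library composition (TMM). Purkinje and granule cell markers were abundant in every library, as the label cerebellum requires. The libraries of mice 16 (SCA1 sedentary) and 55 (SCA1 exercise) stood apart. Their summed level of the 6 brainstem markers with enough reads (of 12 listed) was 43.1 and 38.0 CPM against 0.598 to 9.56 CPM in the other 10 libraries, their 11 oligodendrocyte markers summed to 7346 and 5856 CPM against 2656 to 4444 CPM, and their 12 granule cell markers to 4378 and 5586 CPM against 7556 to 8560 CPM. Multimapping read pairs made up 6.38% and 6.33% in mice 16 and 55, against 2.08% to 3.46% in the others. Per the study's methods, 2 RNA samples of lower integrity had a modified library preparation. The labels do not say which. In addition, 4 chromosome Y genes summed to 0.404 CPM or less in 4 libraries (WT exercise mouse 201, SCA1 sedentary mouse 194, and SCA1 exercise mice 55 and 122) and to at least 207 CPM in the rest, so the sexes were unevenly divided. Atxn1 itself was at 153 ± 8.28 CPM in sedentary and 166 ± 6.06 CPM in exercised WT mice, and at 172 ± 17.9 and 175 ± 24.3 CPM in the corresponding SCA1 mice (SD, n = 3 each), and counts per gene add the expanded and the normal allele together.

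All 6 genes were expressed at low to middling levels, between percentiles 26.6 and 53.4 of mean CPM among the genes tested. Per kilobase of exon and over all 12 libraries, C1galt1c1 was highest at 5.38 ± 0.870 CPM per kb (SD, n = 12), followed by St3gal1 at 1.45 ± 0.898, C1galt1 at 1.17 ± 0.185, Gcnt1 at 0.892 ± 0.428, Gcnt2 at 0.495 ± 0.0946 and Gcnt4 at 0.335 ± 0.134 CPM per kb. From St3gal1 to Gcnt2, each gene lay within an SD of the next in this order. The order is that of the pooled libraries and differed between groups. Gcnt1 was second in WT exercise mice at 1.30 CPM per kb, above C1galt1 at 1.07 and St3gal1 at 0.948, and last in SCA1 sedentary mice at 0.315, below Gcnt4 at 0.366 CPM per kb. The spread between mice was unequal: the highest library was 5.02 times the lowest for Gcnt1 and 4.69 times for St3gal1, but 1.76 times for C1galt1 and 1.78 times for C1galt1c1. Counts were sparse for Gcnt4, at 22 to 89 read pairs per library, and ranged from 48 to 263 for Gcnt1 and from 131 to 763 for St3gal1.

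**Figure D1:**
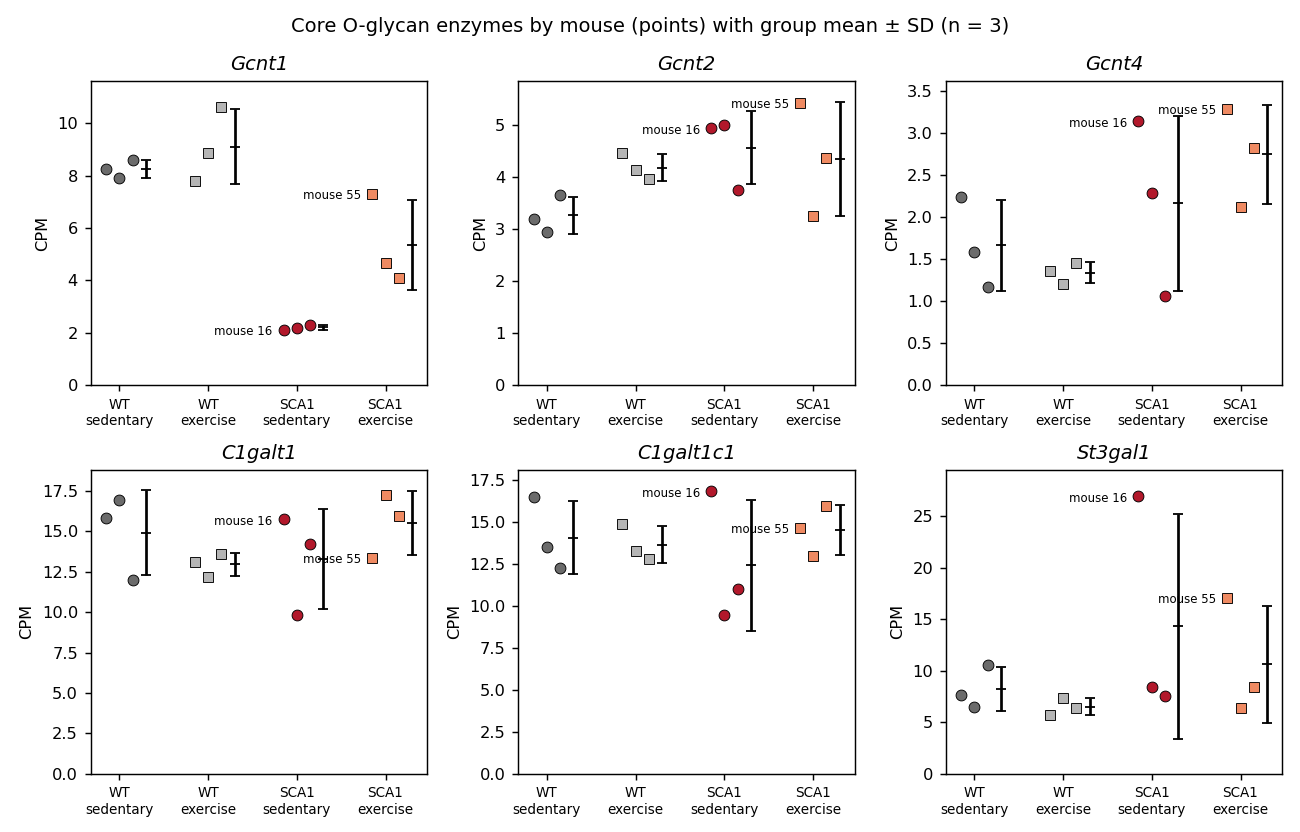
Level in CPM (vertical axes, each starting at 0) of the 6 genes in the 4 groups (horizontal axes), 1 point per mouse, with the group mean and SD beside the points (n = 3) and mice 16 and 55 named. Gcnt1 lay between 2.12 and 2.31 CPM in SCA1 sedentary mice and between 7.80 and 10.6 CPM in WT mice, and St3gal1 was highest in mice 16 and 55.

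C1galt1 and C1galt1c1, the pair that makes core 1, had similar levels in all 4 groups. C1galt1 was at 15.81, 16.96 and 11.96 CPM in WT sedentary mice 116, 117 and 192 and at 13.1, 12.2 and 13.6 CPM in WT exercise mice 121, 197 and 201. It was at 15.8, 9.81 and 14.2 CPM in SCA1 sedentary mice 16, 194 and 195 and at 13.4, 17.2 and 16.0 CPM in SCA1 exercise mice 55, 122 and 198. The groups overlapped in every comparison. C1galt1c1 likewise ran from 12.3 to 16.4 CPM in sedentary and 12.8 to 14.9 CPM in exercised WT mice, and from 9.43 to 16.8 and 13.0 to 15.9 CPM in the SCA1 mice. In the SCA1 sedentary group mouse 16 was high and mice 194 and 195 were low for the chaperone. The log2 fold change (log2FC) from WT sedentary to SCA1 sedentary was -0.17 (95% CI -0.58 to 0.24) for C1galt1 and -0.18 (CI -0.62 to 0.26) for C1galt1c1, both with adjusted p = 0.796 in edgeR's quasi-likelihood test over all 20341 genes. Between the exercised groups it was 0.26 (CI -0.15 to 0.67, adjusted p = 0.960) and 0.09 (CI -0.35 to 0.53, adjusted p = 0.967).

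Gcnt1, the main enzyme of core 2 branching outside the gut, was low in every SCA1 sedentary mouse. It was at 8.27, 7.90 and 8.60 CPM in WT sedentary mice 116, 117 and 192. It was at 2.12, 2.17 and 2.31 CPM in SCA1 sedentary mice 16, 194 and 195. These groups did not overlap and each was tight, with means of 8.26 ± 0.350 and 2.20 ± 0.0995 CPM (SD, n = 3). The highest of the 3 SCA1 sedentary values rested on 48 read pairs, for which the exact Poisson 95% interval was 1.70 to 3.06 CPM (counting error only). The log2FC was -1.91 (CI -2.40 to -1.42), a level 0.266 times that of WT, and 7 of 20341 genes (0.0344%) passed adjusted p under 0.05 with an absolute log2FC over 0.5 in this comparison. Gcnt1 was 1 of those 7, which is how it came to be described. The count of genes called rested on single libraries and on the tool. It was 0 without WT sedentary mouse 116 or 117 and 0 with edgeR on these 2 groups alone (adjusted p = 0.155 for Gcnt1), 42 without SCA1 exercise mouse 55, 205 without mice 16 and 55, and 201 of 35116 genes with DESeq2. In bulk tissue, fewer cells of a type and less RNA per cell cannot be told apart.

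In exercised mice Gcnt1 was again lower in SCA1, by a smaller amount. It was at 7.80, 8.85 and 10.6 CPM in WT exercise mice 121, 197 and 201. It was at 7.30, 4.67 and 4.07 CPM in SCA1 exercise mice 55, 122 and 198. The groups did not overlap, although mouse 55 came close to the lowest WT exercise mouse, and the other 2 lay well below it. These 6 libraries were not part of the sedentary comparison, but their Gcnt1 levels had been seen in earlier results. The log2FC was -0.76 (SE 0.22, CI -1.23 to -0.30), and the difference did not pass the test (edgeR p = 0.00386, adjusted p = 0.960), nor did the exact permutation test, which gave p = 0.1 (two-sided), the smallest that 3 against 3 allows. No gene at all was called here by edgeR (0%), DESeq2 called 3 of 35116, not Gcnt1 among them (adjusted p = 0.770), and 2.93% of genes had an unadjusted p under 0.05 in edgeR. Without mice 16 and 55 the log2FC was -1.05 with adjusted p = 0.0357 in edgeR, and Gcnt1 was then 1 of 37 genes called of 20494. That fit keeps only mice 122 and 198 in the SCA1 exercise group and leaves out its highest Gcnt1 value, so nothing is read from the call. Leaving out mouse 55 alone gave -1.04 with adjusted p = 0.220.

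Running went with higher Gcnt1 in SCA1 mice and with little difference in WT mice. The mean was 2.20 ± 0.0995 CPM in SCA1 sedentary and 5.35 ± 1.72 CPM in SCA1 exercise mice (SD, n = 3 each), without overlap. The log2FC was 1.28 (CI 0.79 to 1.77). The difference in Gcnt1 between these groups had been noticed beforehand, so its values here are a description. From WT sedentary to WT exercise the log2FC was 0.14 (CI -0.32 to 0.60) and the groups overlapped, at 7.90 to 8.60 and 7.80 to 10.6 CPM. The difference between these effects of running, on the log2 scale, was 1.14 (CI 0.47 to 1.82). The intervals for running in SCA1 and for this difference reuse the sedentary libraries on which Gcnt1 was chosen. They are therefore descriptions and no test, and edgeR called neither. In order of level the groups were WT exercise, WT sedentary, SCA1 exercise and SCA1 sedentary, of which the 2 WT groups did not differ beyond their spread. The highest SCA1 exercise value, 7.30 CPM in mouse 55, was below the lowest WT sedentary value of 7.90 CPM. Without mice 16 and 55 the running difference in SCA1 was 0.96 and the difference between genotypes 0.82.

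**Figure D2:**
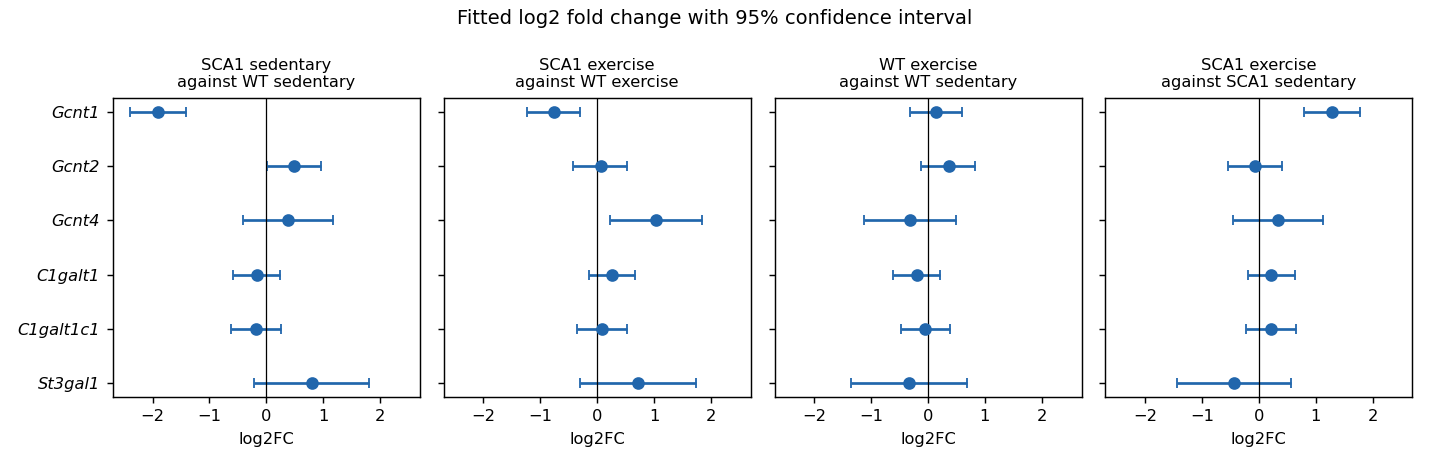
Fitted log2FC (horizontal axes) with 95% confidence intervals for the 6 genes (rows) in 4 comparisons (panels), each from 3 against 3 mice with the spread estimated over all 12 libraries. The interval of Gcnt1 lies below 0 in both genotype comparisons and above 0 for running in SCA1, that of Gcnt2 lies just above 0 between the sedentary genotypes (0.01 to 0.96), and that of Gcnt4 lies above 0 between the exercised genotypes. Gcnt1 was chosen on the sedentary genotypes, and both running comparisons reuse those libraries, so its intervals there are descriptions. The intervals are not adjusted for the number of genes, and of these differences only Gcnt1 between the sedentary genotypes was called.

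Purkinje cells are the output neurons of the cerebellar cortex and the cells most affected in SCA1. The 17 Purkinje cell markers summed to 10784 to 11699 CPM in WT sedentary and 10892 to 11633 CPM in WT exercise mice. They summed to 6662, 8397 and 7911 CPM in SCA1 sedentary mice 16, 194 and 195. In SCA1 exercise mice 55, 122 and 198 the sums were 10732, 9576 and 8260 CPM. All 17 markers had a negative log2FC in SCA1 sedentary mice, with a median of -0.66 and a lowest value of -1.17 for Pcp4, a calmodulin-binding peptide. Of them Pcp4 (adjusted p = 0.0126) and Calb1, the calcium buffer calbindin (-0.82, adjusted p = 0.0398), passed the test. Over both activity groups Gng13, a G protein gamma subunit, passed with them (log2FC -0.81). Pcp2 was at 201 ± 10.1 CPM in WT sedentary and 115 ± 32.2 CPM in SCA1 sedentary mice (SD, n = 3) and did not pass. Per 1000 CPM of Purkinje cell markers, Gcnt1 was at 0.746 ± 0.0630 in sedentary and 0.813 ± 0.154 in exercised WT mice, and at 0.289 ± 0.0301 and 0.554 ± 0.110 in the SCA1 mice (SD, n = 3 each). The most abundant marker, Itpr1, had a mean of 4371 CPM, so that the sum leans on this gene. The ratio was 0.258 to 0.318 in SCA1 sedentary against 0.676 to 0.798 in WT sedentary mice. Gcnt1 was chosen on that comparison, so these values are a description from which nothing is read. Between the exercised groups this ratio overlapped (0.488 to 0.680 in SCA1, 0.670 to 0.976 in WT), with a log2 difference of -0.55 and an exact permutation p of 0.200 (two-sided). Whether the number of Purkinje cells has a part in the level of Gcnt1 was not tested.

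**Figure D3:**
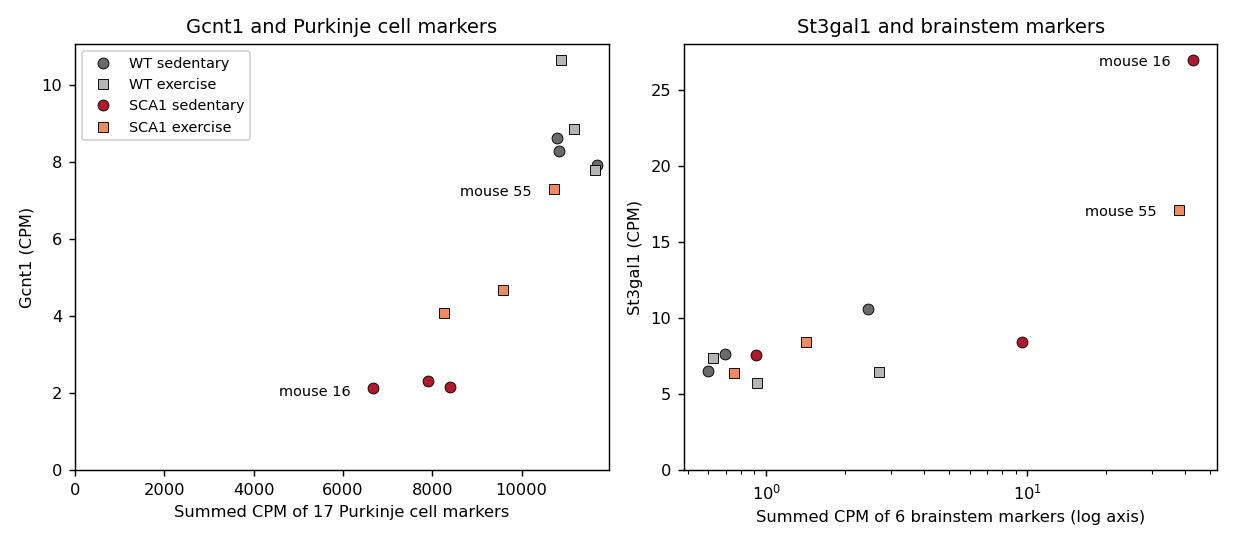
Left, Gcnt1 in CPM against the summed CPM of 17 Purkinje cell markers. Right, St3gal1 in CPM against the summed CPM of 6 brainstem markers on a log axis. Each point is 1 mouse and colours and shapes give the 4 groups. SCA1 sedentary mice are the lowest points of the Purkinje plot, with 2.12 to 2.31 CPM of Gcnt1. Their marker sums of 6662 to 8397 CPM take in that of SCA1 exercise mouse 198 (8260 CPM). Mice 16 and 55 sit alone at the upper right of the brainstem plot with 26.9 and 17.1 CPM of St3gal1.

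Gcnt4, a less studied core 2 enzyme, had its higher values among SCA1 mice, though not in each group. It was at 2.24, 1.58 and 1.17 CPM in WT sedentary mice 116, 117 and 192 and at 3.14, 2.29 and 1.06 CPM in SCA1 sedentary mice 16, 194 and 195. Among exercised mice it was at 1.36, 1.21 and 1.45 CPM in WT mice 121, 197 and 201 and at 3.29, 2.13 and 2.83 CPM in SCA1 mice 55, 122 and 198. The sedentary groups overlapped and the exercised groups did not. The log2FC was 0.38 (CI -0.41 to 1.18, adjusted p = 0.750) in sedentary and 1.03 (CI 0.22 to 1.84, adjusted p = 0.960) in exercised mice by edgeR, and neither passed. The exact permutation p was 0.7 and 0.1. Over both activity groups the log2FC was 0.71 (CI 0.14 to 1.28, adjusted p = 0.412), with an exact p of 0.0650 when genotype was permuted within activity groups (smallest possible p 0.00500). Mice 16 and 55 had the highest Gcnt4 of the 12, and without them the values were 0.03 in sedentary and 0.89 in exercised mice. At 22 to 89 read pairs per library the interval of each Gcnt4 value was wide, for example 0.663 to 1.60 CPM in mouse 195.

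Gcnt2, the I-branching enzyme, had low levels that shifted little. It was at 3.19, 2.95 and 3.66 CPM in WT sedentary mice 116, 117 and 192 and at 4.47, 4.13 and 3.96 CPM in WT exercise mice 121, 197 and 201. It was at 4.94, 5.01 and 3.75 CPM in SCA1 sedentary mice 16, 194 and 195 and at 5.44, 3.25 and 4.37 CPM in SCA1 exercise mice 55, 122 and 198. The WT sedentary group was the lowest and overlapped with neither WT exercise nor SCA1 sedentary mice. In the edgeR fit the log2FC was 0.49 by genotype in sedentary mice (CI 0.01 to 0.96, adjusted p = 0.486) and 0.36 by running in WT mice (CI -0.12 to 0.83, adjusted p = 0.958). The exact permutation p was 0.1 for both, and neither difference passed. Gcnt2 is overlapped by 6 genes on the opposite strand, and 52 to 103 read pairs per library lay on that strand within its annotation, against 69 to 140 on its own. For the other 5 genes that number was 3 or fewer in every library. With both strands counted together the exercised genotype difference of Gcnt2 turned from 0.06 to -0.06.

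St3gal1, which caps core 1 with sialic acid, was set apart by 2 libraries rather than by a group. It was at 7.64, 6.49 and 10.6 CPM in WT sedentary mice 116, 117 and 192 and at 5.74, 7.34 and 6.43 CPM in WT exercise mice 121, 197 and 201. It was at 26.9, 8.41 and 7.55 CPM in SCA1 sedentary mice 16, 194 and 195 and at 17.1, 6.38 and 8.40 CPM in SCA1 exercise mice 55, 122 and 198. Mice 16 and 55 were thus the highest, and the other 4 SCA1 mice, at 6.38 to 8.41 CPM, lay within the WT range of 5.74 to 10.6 CPM. These are the same 2 libraries that held the most brainstem, oligodendrocyte and microglia marker RNA. Their 11 microglia markers summed to 199 and 163 CPM against at most 138 CPM in the others, and the part of other cell types in the level of St3gal1 was not tested. The edgeR log2FC of 0.80 in sedentary mice (CI -0.21 to 1.81, adjusted p = 0.593) and 0.71 in exercised mice (CI -0.31 to 1.73, adjusted p = 0.960) did not pass. Without these 2 mice they were -0.03 and 0.19.

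Across the set, therefore, 1 of 6 genes was called between the sedentary genotypes, Gcnt1 itself, and 0 of 6 in each of the other 3 pairs of groups by edgeR. DESeq2 also called 0 of 6 between the exercised genotypes and for running in WT. With an unadjusted p under 0.05 there were 2, 2, 0 and 1 of 6, in the order sedentary genotype, exercised genotype, running in WT and running in SCA1, beside 10.1%, 2.93%, 4.69% and 2.17% of all genes. Groups did not overlap for 2, 2, 1 and 1 of 6, beside 11.4%, 14.2%, 21.2% and 4.50% of all genes. Gcnt1 enters the counts for the sedentary genotypes and for running in SCA1 by the way it was chosen, so nothing is read from its part in them. EdgeR called no gene of the 20341 for running in either genotype (0% each), and DESeq2 called 63 of 35116 in WT and 1 in SCA1 mice. Over both activity groups Gcnt1 was the 1 member among 24 genes called (0.118%), with a log2FC of -1.34. For none of the other 5 was the effect of running shown to differ between genotypes (edgeR interaction, adjusted p = 1.00 each, 0% of genes called, 1 of 6 members and 3.78% of genes with an unadjusted p under 0.05, the member being Gcnt1). These comparisons reuse the sedentary libraries on which Gcnt1 was chosen. The 5 were also set beside Gcnt1 over the pooled libraries, which include its difference between genotypes. As a description over the 12 libraries, Pearson's r of log2 CPM with Gcnt1 was -0.38 for St3gal1, -0.36 for Gcnt2, -0.33 for Gcnt4, 0.05 for C1galt1 and 0.27 for C1galt1c1.

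The rest of the glycosylation machinery was measured in the same fits. Of 95 genes in 8 lists, covering O-GalNAc initiation, other cores, lactosamine extension, sialic acid, fucose and sulfate caps, the O-mannose pathway, N-glycan branching and O-glycoprotein carriers, 84 had enough reads, and none was called in any comparison by edgeR. DESeq2 called 2 of them, B3gnt5 and St6galnac5, between the sedentary genotypes, 1, St6galnac5, over both activity groups, and 0 in the other comparisons, beside 201 and 179 of all 35116 genes it tested in the first and second of these. The median log2FC of the 84 was 0.02 between the sedentary and 0.03 between the exercised genotypes, against 0.02 and 0.00 over all genes. In these comparisons 11 and 2 of the 84 had an unadjusted p under 0.05 in edgeR, beside 10.1% and 2.93% of all genes. Gcnt1 had the lowest signed log2FC of these and the 6 core enzymes in both genotype comparisons, which in sedentary mice follows from how it was chosen. In exercised mice B3gnt6 (1.11), Galnt14 (1.10), Fut4 (0.89) and St6galnac5 (0.82) differed by more in absolute size than Gcnt1 at -0.76, as did Gcnt4, each with adjusted p = 0.960 in edgeR.

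**Figure D4:**
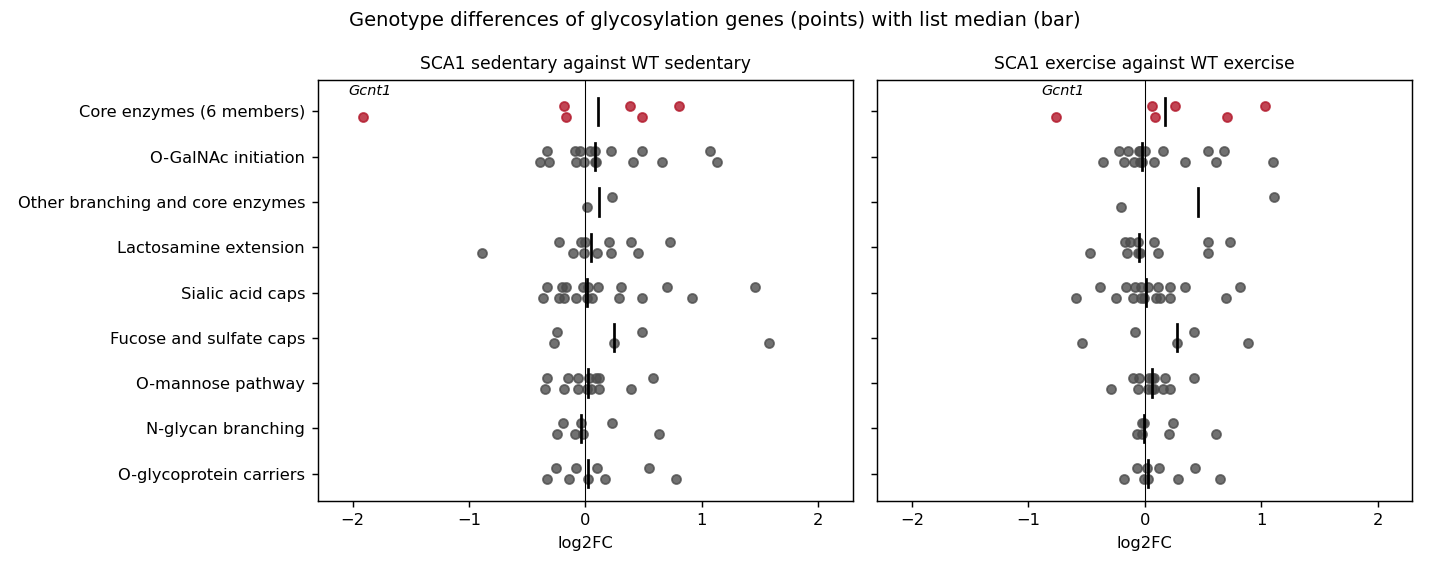
Fitted log2FC (horizontal axes) of the 6 core enzymes (red) and of 84 other glycosylation genes (grey) by list (rows), between sedentary genotypes (left) and exercised genotypes (right). Bars mark list medians, and Gcnt1 is the lowest point in both panels, at -1.91 and -0.76, while in the right panel points on the positive side reach 1.11. In the left panel the place of Gcnt1 follows from how it was chosen.

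The genes nearest to a call in these lists each had their own pattern. B3gnt5, which starts lactosamine chains on glycolipids, was at 9.75, 9.64 and 14.9 CPM in SCA1 sedentary mice 16, 194 and 195, below the 16.6 to 25.4 CPM of WT sedentary mice. In SCA1 exercise mice 55, 122 and 198 it was at 16.9, 22.5 and 16.5 CPM, above the SCA1 sedentary group. Its log2FC was -0.89 by genotype in sedentary mice (edgeR adjusted p = 0.189) and 0.70 by running in SCA1 (adjusted p = 0.999). St6galnac5, a sialyltransferase known for making brain gangliosides, went the other way. It was at 2.69 to 3.92 CPM in the 6 WT mice and at 14.97, 4.80 and 7.12 CPM in SCA1 sedentary and 7.02, 5.80 and 5.70 CPM in SCA1 exercise mice, without overlap between genotypes. Over both activity groups its log2FC was 1.14 (adjusted p = 0.112), which did not pass.

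Among the initiating GalNAc-transferases, 9 of 17 had a positive and 8 a negative log2FC over both activity groups. The 3 with the smallest p were Galnt15 (-0.38, adjusted p = 0.244), Galnt13 (-0.23, adjusted p = 0.411) and Galnt6 (0.59, adjusted p = 0.489). Of these Galnt15 was at 78.4 to 84.6 CPM in the 6 WT mice and at 45.8 to 74.8 CPM in the 6 SCA1 mice. Galnt6 had its 2 highest values, 38.0 and 22.4 CPM, in mice 16 and 55, and Galnt15 its 2 lowest, 45.8 and 55.1 CPM. Of the sialic acid caps, 8 of 18 were positive and 10 negative, with St3gal5, the GM3 ganglioside synthase, at -0.31 (adjusted p = 0.268) and St8sia5 at -0.36 (adjusted p = 0.444). The same mice 16 and 55 had the lowest values of St3gal5 (72.1 and 94.3 CPM) and of St8sia5 (173.8 and 252.5 CPM).

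In lactosamine extension 7 of 12 were positive and 5 negative, and beside B3gnt5 (-0.52, not called) the smallest p were those of B4galt4 (-0.18, adjusted p = 0.549) and B3gnt2 (0.64, adjusted p = 0.580). The O-mannose pathway, which decorates dystroglycan, had 8 of 14 positive and 6 negative, with Mgat5b at 0.50 (adjusted p = 0.310) and Pomgnt2 at 0.30 (adjusted p = 0.322). Of 7 N-glycan branching genes 3 were positive and 4 negative, with Mgat4b at -0.16 (adjusted p = 0.462), Mgat4c at 0.62 (adjusted p = 0.522) and Mgat1 at 0.22 (adjusted p = 0.575). Here too mice 16 and 55 were the highest for Mgat5b (49.3 and 39.5 CPM), Mgat4c (14.7 and 10.4 CPM) and Mgat1 (56.7 and 41.7 CPM).

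The smaller lists were as even. Of 5 fucose and sulfate cap genes 3 were positive and 2 negative, and Chst2 (0.26, adjusted p = 0.475), Fut4 (1.24, adjusted p = 0.551) and Fut2 (-0.41, adjusted p = 0.523) came first, Fut4 at under 1 CPM. Of 9 carriers of O-glycans 5 were positive and 4 negative, with podoplanin (Pdpn) at 0.49 (adjusted p = 0.286), the mucin Muc1 at 0.38 (adjusted p = 0.757) and endomucin (Emcn) at -0.16 (adjusted p = 0.767). Again mice 16 and 55 were the highest for Chst2 (119 and 105 CPM), Fut4 (0.989 and 0.754 CPM) and Pdpn (10.3 and 9.92 CPM). Of other core enzymes only B3gnt6, which makes core 3, at 0.67 (adjusted p = 0.575), and B3gnt3 at -0.09 (adjusted p = 0.917) had enough reads, both at under 1 CPM in every library.

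The genes beside Gcnt1 on chromosome 19 were measured in the same fits. Of the 3 nearest protein-coding genes on each side, 5 had enough reads. None of them was called in either genotype comparison by edgeR or DESeq2, and all 5 had an unadjusted p of 0.0817 or more in edgeR. Of all genes, edgeR called 0.0344% between the sedentary and 0% between the exercised genotypes, and DESeq2 called 201 and 3 of 35116. At such shares 0 of 5 says little, and Gcnt1 had been chosen for its difference. Rfk, a riboflavin kinase 21.2 kb away, had a log2FC of 0.04 between the sedentary genotypes (CI -0.40 to 0.48). Pcsk5, a proprotein convertase 59.5 kb away, had one of 0.81 (CI -0.12 to 1.73, adjusted p = 0.560). Prune2, 102 kb away on the other side, was at -0.12, Vps13a at -0.08 and Ostf1, 1143 kb away, at -0.02. Foxb2 had 11 read pairs in all 12 libraries together and was not tested.

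**Figure D5:**
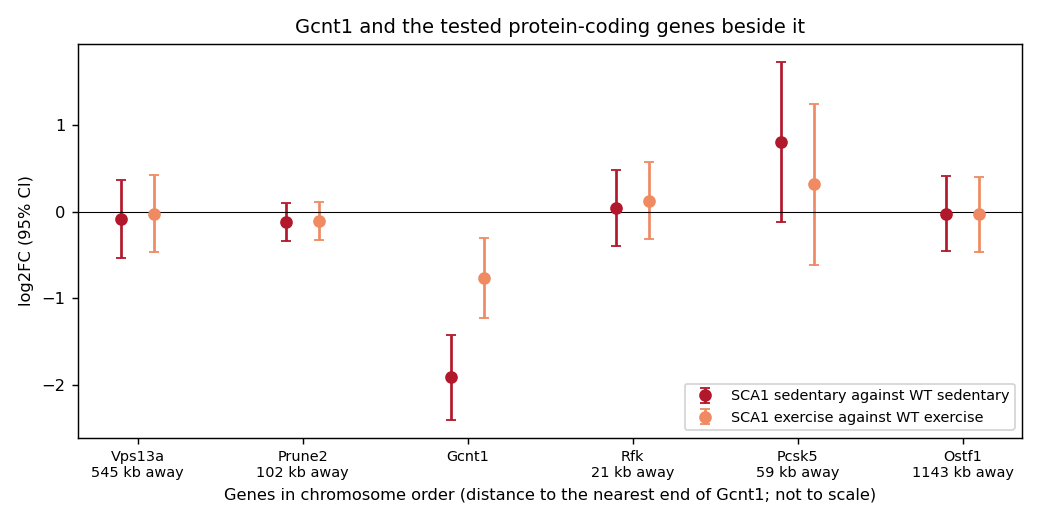
Fitted log2FC (vertical axis) with 95% confidence intervals for Gcnt1 and 5 protein-coding neighbours in chromosome order (horizontal axis, not to scale), between the sedentary (dark red) and the exercised genotypes (orange). The interval of Gcnt1 lies below 0 in both, and those of all 5 neighbours span 0. Gcnt1 was chosen on the sedentary comparison, so its interval there is a description, and its difference between the exercised genotypes was not called.

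The genes whose levels were most like that of Gcnt1 included known Purkinje cell genes. Of 12587 genes with an average of at least 1 on the log2 CPM scale, the highest Pearson's r with Gcnt1 over the 12 libraries included those of Pcp4 (0.96), Tssk5 (0.95), Atl2 (0.95), Cep76 (0.94), Twsg1 (0.94), Rgs8 (0.94), a G protein regulator, and Armh4 (0.93). The lowest were those of Asl (-0.97), a urea cycle enzyme, Idnk (-0.92), Capn5 (-0.91) and Nrg3 (-0.91), a neuregulin. These values are descriptions, and the points share library composition and the difference between genotypes. Within the 6 SCA1 libraries r of these 7 genes with high r was between 0.84 and 0.99, whereas within the 6 WT libraries it was between -0.61 and 0.42. Among the 17 Purkinje cell markers the median r was 0.84, and 15 of them reached 0.8, as did 1.06% of all genes. All 17 had a negative log2FC between the sedentary genotypes, the comparison on which Gcnt1 was chosen, so nothing is read from this share. Pcp4 was at 24.3 ± 1.23 CPM in sedentary and 22.9 ± 1.95 CPM in exercised WT mice, and at 10.8 ± 0.455 and 15.2 ± 2.48 CPM in the SCA1 mice (SD, n = 3 each), in which the 2 WT groups overlapped and the SCA1 exercise group lay between SCA1 sedentary and WT, as Gcnt1 did.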

How the data were processed

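Whole cerebellar RNA was depleted of ribosomal RNA and made into strand-specific libraries. Per the labels and the study's methods, reads were checked with FastQC, trimmed with fastp 0.24.0 and aligned to GRCm39 with STAR 2.7.10a. The deposited values are the authors' STAR counts, whole read pairs per gene, unnormalized and in 3 strand settings. The reverse-strand counts were used, with forward counts as a check. Depth was 20556802 to 32127508 counted pairs, and intervals on single values cover counting error only.

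Groups came from the labels. Gene symbols and positions were taken from GENCODE M39, which held 56323 of 56941 identifiers, and of 225 listed genes 2 were not matched. Genes passing edgeR's filterByExpr (20341) were scaled by TMM and fitted over all 12 libraries and 4 groups (edgeR 4.0.16 in R 4.3.3, quasi-likelihood F test, Benjamini-Hochberg adjustment). A gene was called at adjusted p under 0.05 with an absolute log2FC over 0.5. Log2 CPM used a prior count of 2. Exact permutation tests were two-sided. P-values measure the spread between mice, 3 per group. The scripts were tested on simulated counts. Alternatives were DESeq2 1.42.0, other scalings and filters, both strands, covariates and left-out libraries.

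The 6 genes and all lists were chosen with earlier results of these data known. Genes named were the 6, any called list gene, the 3 of smallest p per glycosylation list in SCA1 against WT over both activity groups, 3 protein-coding neighbours on each side of Gcnt1, the 8 highest and 4 lowest r with Gcnt1, and markers. Of these, 2 genes are not reported here. Galnt14 was named after its value was seen, and the promoter motifs were also chosen then.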

Additional observations from a re-analysis of the deposited data

How the results depend on the processing

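Of 744 values of the 6 genes under 21 alternatives, 716 kept their sign, and no member other than Gcnt1 was called in any. Gcnt1 kept its sign throughout. Except between exercised genotypes, these values reuse sedentary libraries on which Gcnt1 was chosen, so its sign there is a description. The number of members called between the sedentary genotypes fell from 1 to 0 with edgeR on the 2 groups alone and ranged from 0 to 1 with each library left out (0 without WT sedentary mouse 116 or 117). Over both activity groups it ranged from 0 to 1 (0 without WT exercise mouse 201). Between exercised genotypes it rose from 0 to 1 without mice 16 and 55, where the highest SCA1 exercise value of Gcnt1 is left out. For running in SCA1 it rose from 0 to 1 with DESeq2. Gcnt1 had been noticed beforehand in both comparisons, and nothing is read from either rise. The causes were not tested.

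These signs turned. Without mice 16 and 55 the log2FC was -0.03 for St3gal1 between sedentary genotypes, -0.13 for Gcnt2 between exercised genotypes and 0.22 for the St3gal1 interaction. With the brainstem marker level as a covariate, an alternative chosen after seeing the data, they were -0.17, -0.09 and 0.32, with -0.11 for Gcnt4 between sedentary genotypes and -0.01 for St3gal1 over both activity groups. Gcnt2 was at -0.06 with both strands counted. With a chromosome Y covariate C1galt1c1 was at 0.04 for running in WT and 0.06 over both activity groups. With each library left out, the ranges that crossed 0 were -0.05 to 1.08 (St3gal1, sedentary genotypes), -0.13 to 0.20 (Gcnt2, exercised genotypes), -0.14 to 0.08 (C1galt1c1, running in WT), -0.25 to 0.08 and -0.93 to 0.41 (Gcnt2 and St3gal1, running in SCA1), -0.60 to 0.75 (St3gal1 interaction), and -0.03 to 0.13 and -0.19 to 0.03 (C1galt1 and C1galt1c1, both activity groups). Per kilobase of the longest transcript instead of all exons, the order of the 6 levels was the same. With group means removed, r with Gcnt1 was 0.80 for Pcp4 and 0.36 to 0.65 for the other 6 genes named with high r.

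No paired analysis was possible because mouse numbers are unique to each group. The exact test of 3 against 3 mice cannot pass (smallest p 0.1), whereas the one permuted within activity groups can (smallest p 0.00500). At these depths Gcnt4 and SCA1 sedentary Gcnt1 rest on under 100 read pairs.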
